A study of Homo sapiens with 4 samples.

Results

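H/ACA RNAs and small Cajal body RNAs are short nuclear RNAs that direct the chemical modification of other RNAs. The set described here comprised all 239 genes with a symbol starting in SNORA or SCARNA among the 62700 genes of a fragment count table with GENCODE 44 symbols. Of these, 214 were SNORA genes, named for nucleolar H/ACA RNAs, and 25 were SCARNA genes, named for small Cajal body RNAs. The rule for the members used their symbols and no measured value, although it was written with earlier results of these data known. Of the members, 45, 38 SNORA and 7 SCARNA, had 10 or more fragments in at least 2 of the 4 libraries and were tested. The other 194 comprised 123 at 0 fragments in every library and 71 with fragments that missed this minimum.

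The libraries came from HEK293T cells, a clonal line of human embryonic kidney origin, that stably carried a V5-tagged PRADA construct driven by the CMV promoter and directed to the mitochondrial matrix. PRADA is a proximity labelling method that tags molecules near the construct. Cells of both groups received 100 µM s4U (4-thiouridine, a uridine analogue taken into new RNA) for 5 h, and 0.5 mM alkyne phenol was then added to fresh s4U medium for 30 min. The labelled group (2 libraries) was then given 10 mM D-amino acid for 30 min, and the unlabelled group (2 libraries) went without it. The series text calls the material labelled and enriched, and ribosomal RNA was depleted before library preparation. Both groups thus shared the construct, s4U and alkyne phenol. The titles call the 2 libraries of a group biological replicates and do not say whether they came from separate cultures, and the p-values therefore speak only of library-to-library spread. Xenograft material was not analysed here.

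H/ACA RNAs fold into hairpins followed by an H box and, just before the 3′ end, an ACA box, and they assemble with the proteins DKC1 (the pseudouridine synthase), NHP2, NOP10 and GAR1. Most guide the conversion of uridine to pseudouridine in ribosomal RNA within the nucleolus. The small Cajal body RNAs do the same kind of work on spliceosomal small nuclear RNAs in the Cajal body, and some of them belong wholly or partly to the other guide family, the C/D box RNAs, which direct ribose methylation with fibrillarin. In human cells nearly all of these RNAs are cut out of introns of host genes. They are nuclear RNAs, whereas the construct sits in the mitochondrial matrix, so the comparison asks how nuclear guide RNAs are represented when matrix labelling is switched on.

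Sequences of some members with high levels are shown because the gene symbols hide a difference in family among them. Each is the transcript strand of a member as annotated in GENCODE 29 on GRCh38, whose spans match the deposited table, in DNA letters. Capitals mark TGATGA (the core of the C box, searched over the whole transcript), CTGA within the last 10 bases where TGATGA is also present (the D box), and ACA placed 3 bases before the 3′ end (the ACA box). Only the transcript strand was searched, and the capital motifs do not overlap in these sequences. For SCARNA7 (330 bases) and SCARNA9 (353 bases) the first and last 80 bases are given. The 4 SCARNA members with the highest counted levels come first, followed by SCARNA21, the next SCARNA by level, and by SNORA73B and SNORA12. SNORA71B, the second SNORA by level, is not printed.
SCARNA7 bases 1 to 80: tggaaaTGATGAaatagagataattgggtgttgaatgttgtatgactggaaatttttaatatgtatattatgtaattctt
SCARNA7 bases 251 to 330: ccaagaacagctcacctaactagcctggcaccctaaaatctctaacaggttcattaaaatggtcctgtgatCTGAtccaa
SCARNA9 bases 1 to 80: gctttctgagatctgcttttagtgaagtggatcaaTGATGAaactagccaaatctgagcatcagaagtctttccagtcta
SCARNA9 bases 274 to 353: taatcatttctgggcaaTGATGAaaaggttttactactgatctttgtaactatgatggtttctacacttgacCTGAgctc
SCARNA5: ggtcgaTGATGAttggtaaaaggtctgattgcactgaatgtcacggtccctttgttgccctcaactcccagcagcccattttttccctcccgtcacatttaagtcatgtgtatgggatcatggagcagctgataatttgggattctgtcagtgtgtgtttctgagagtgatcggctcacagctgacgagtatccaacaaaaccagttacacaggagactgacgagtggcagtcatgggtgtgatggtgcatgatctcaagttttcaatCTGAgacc
SCARNA6: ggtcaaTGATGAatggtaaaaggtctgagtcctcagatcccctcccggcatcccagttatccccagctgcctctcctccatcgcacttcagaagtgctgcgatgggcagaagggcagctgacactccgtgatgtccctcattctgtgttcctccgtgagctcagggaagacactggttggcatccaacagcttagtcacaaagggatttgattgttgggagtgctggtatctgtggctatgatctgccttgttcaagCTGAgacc
SCARNA21: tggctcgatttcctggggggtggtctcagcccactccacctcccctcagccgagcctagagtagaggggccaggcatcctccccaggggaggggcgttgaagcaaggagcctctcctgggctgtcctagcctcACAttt
SNORA73B: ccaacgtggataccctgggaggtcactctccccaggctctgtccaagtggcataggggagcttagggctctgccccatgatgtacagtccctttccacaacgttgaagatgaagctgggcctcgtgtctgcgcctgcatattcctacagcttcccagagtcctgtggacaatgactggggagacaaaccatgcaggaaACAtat
SNORA12: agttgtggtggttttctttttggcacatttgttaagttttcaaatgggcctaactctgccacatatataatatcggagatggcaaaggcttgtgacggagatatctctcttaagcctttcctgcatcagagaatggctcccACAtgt

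SCARNA7 (chr3:160514907-160515236, minus strand), also called U90, and SCARNA9 (chr11:93721513-93721865, plus strand), also called mgU2-19/30, are known as C/D type Cajal body RNAs. SCARNA5 (U87, chr2:233275727-233276002, plus strand) and SCARNA6 (U88, chr2:233288676-233288940, plus strand) are known as mixed RNAs with a C/D and an H/ACA part. All 4 carried TGATGA and a terminal CTGA, and the ACA box was not at the usual place in them. SCARNA21 (chr17:7906122-7906260, plus strand), SNORA73B (chr1:28508559-28508762, plus strand) and SNORA12 (chr10:100237156-100237302, minus strand) ended in the ACA box and lacked TGATGA. Not all SNORA members with high levels did so. SNORA71B, SNORA53 and SNORA74D lacked both TGATGA and an ACA at that place. Over the 238 members with a sequence, ACA stood 3 bases before the end in 142 of 213 SNORA genes (66.7%) and in 14 of 25 SCARNA genes (56.0%), against 4 of 272 SNORD genes (1.47%), the C/D box class. TGATGA with the terminal CTGA occurred in 0 SNORA and 7 SCARNA genes (28.0%), against 148 SNORD genes (54.4%). Among the 7 tested SCARNA genes, 4 held the C/D pair and the other 3, SCARNA21, SCARNA1 and SCARNA18B, held the ACA box.

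Before any comparison, the counting decided which members could be seen. Fragments touching exons of more than 1 gene stay unassigned in this table, and many H/ACA genes lie inside an annotated exon of another gene. Of the 239 members, 72 (64 SNORA and 8 SCARNA) lay wholly inside an exon of another gene, and all 72 had 0 fragments in all 4 libraries. The covering gene was on the same strand for 71 of them. It was an SNHG gene, the non-coding host genes of small nucleolar RNAs, for 21 members, a cytosolic ribosomal protein gene for 13, TAF1D for 6 and EIF4A2 for 4, while 6 were covered by another member. Both human U17 genes show the effect side by side in their host SNHG3. SNORA73A (chr1:28507366-28507571) lay wholly in an annotated SNHG3 exon and had 0 fragments, and SNORA73B, in an intron of the same gene, had 202 and 245 fragments in the labelled libraries, against 284 and 332 fragments in the unlabelled libraries.

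The same applied to well-known Cajal body RNAs. SCARNA12 (U89) inside a PHB2 exon, SCARNA13 inside an SNHG10 exon, SCARNA17 inside SNHG22, SCARNA16 inside SNHG20, SCARNA22 inside NSD2 and SCARNA2 inside ENSG00000270066 had 0 fragments each. SCARNA10 (U85), with 75.2% of its bases in an exon of ENSG00000276232, had 0 and 0 fragments in the labelled libraries, against 0 and 2 fragments in the unlabelled libraries. SCARNA4 was listed as a pair of genes at the same place on chromosome 1, each overlapping the other, and both had 0 fragments. SNORA36A and SNORA56 lay in annotated exons of DKC1, the gene of the H/ACA pseudouridine synthase, and also had 0. For these genes a count of 0 is set by the annotation and gives no level of the RNA.

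**Figure D1:**
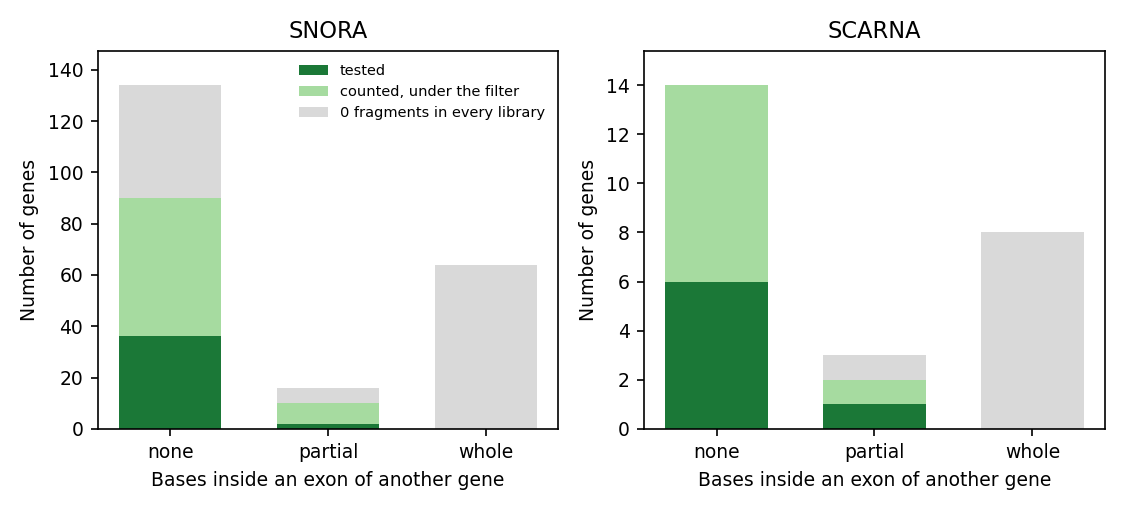
Number of SNORA (left) and SCARNA (right) genes by how many of their bases lie in an exon of another gene on either strand (none, partial, whole). Bars stack tested members, members with fragments that missed the minimum and members at 0 in every library, and all 72 members wholly inside an exon are at 0.

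A further 19 members were partly covered. They included SCARNA9, with 42.2% of its bases in exons of ENSG00000273885 and ENSG00000275146, and SNORA53, with 10.4% of its bases in an SLC25A3 exon. ENSG00000273885 and ENSG00000275146, of 70 and 80 bases, lie almost wholly in SCARNA9. Their own count of 0 fragments is thus set by the annotation. The remaining 148 members touched no other exon and held 9224 of the 10069 member fragments (91.6%). Of these 148, 44 were at 0 in every library, which allows up to 3 fragments, or between 0.244 and 0.520 CPM (counts per 1000000 assigned fragments) depending on the library. Fragments that map to several places are left out of the table, and how much each family of similar copies lost by this was not tested. The SNORA70 family had 36 genes, of which 24 were at 0 and 2 were tested, whereas all 5 SNORA80 genes were tested.

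All members together were a very small part of the libraries and took a smaller share of the labelled ones. The 239 genes took 0.0224% of assigned fragments in labelled replicate 1 (95% Wilson interval 0.0214 to 0.0233%) and 0.0227% in labelled replicate 2 (0.0219 to 0.0236%), against 0.0307% in unlabelled replicate 1 (0.0295 to 0.0319%) and 0.0463% in unlabelled replicate 2 (0.0446 to 0.0481%). The labelled libraries were nearly equal, both lay below both unlabelled ones, and unlabelled replicate 2 was the highest. The means were 0.0225% ± 0.000240 in labelled and 0.0385% ± 0.0110 in unlabelled libraries (SD, n = 2 each), a ratio of 0.585. With 2 against 2 libraries no permutation test of a share can pass 0.05, and none was run.

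The mitochondrial chromosome took 28.95% ± 2.77 of labelled and 9.73% ± 0.980 of unlabelled fragments (SD, n = 2 each), which lowers the share left for every nuclear RNA in labelled libraries. Among fragments outside the mitochondrial chromosome the members took 0.0306% and 0.0329% in the labelled libraries, against 0.0338% and 0.0517% in the unlabelled libraries. The groups still did not overlap, the ratio was 0.743, and labelled replicate 2 and unlabelled replicate 1 stood close together. Without unlabelled replicate 2 the ratio over all assigned fragments was 0.734. Outside the mitochondrial chromosome the labelled mean of 0.03175% was then set against 0.03377% in unlabelled replicate 1. Little of the difference was thus left when both limits were applied.

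Split by class, the SNORA genes took 0.0104% and 0.00983% of assigned fragments in the labelled libraries, against 0.0147% and 0.0226% in the unlabelled libraries. The SCARNA genes took 0.0120% and 0.0129% in the labelled libraries, against 0.0160% and 0.0237% in the unlabelled libraries. Both classes were lower in both labelled libraries, with ratios of 0.542 for SNORA and 0.626 for SCARNA. Outside the mitochondrial chromosome the ratios were 0.688 and 0.795, in that order. There the SCARNA groups overlapped, at 0.0164% and 0.0186% in labelled against 0.0176% and 0.0265% in unlabelled libraries. The labelled SCARNA mean of 0.01754% stood beside 0.01764% in unlabelled replicate 1. Some other small or structured RNAs also took a smaller share of all assigned fragments in labelled libraries. The ratio was 0.554 for SNORD genes, 0.472 for RN7SL genes (the signal recognition particle RNA and its copies) and 0.364 for RMRP (the RNA of RNase MRP). Spliceosomal RNA genes, described below, went the other way. One of them, RNU4-2, had 86 and 124 fragments in the labelled libraries, against 49 and 33 fragments in the unlabelled libraries. The SNORD genes took 0.213% and 0.236% in the labelled libraries, against 0.243% and 0.566% in the unlabelled libraries, and without unlabelled replicate 2 their ratio was 0.923. Outside the mitochondrial chromosome the SNORD groups overlapped. Without the same library the ratios of RN7SL genes and RMRP were 0.651 and 0.371, in that order, values computed after the data were seen. Their part in the difference was not tested.

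**Figure D2:**
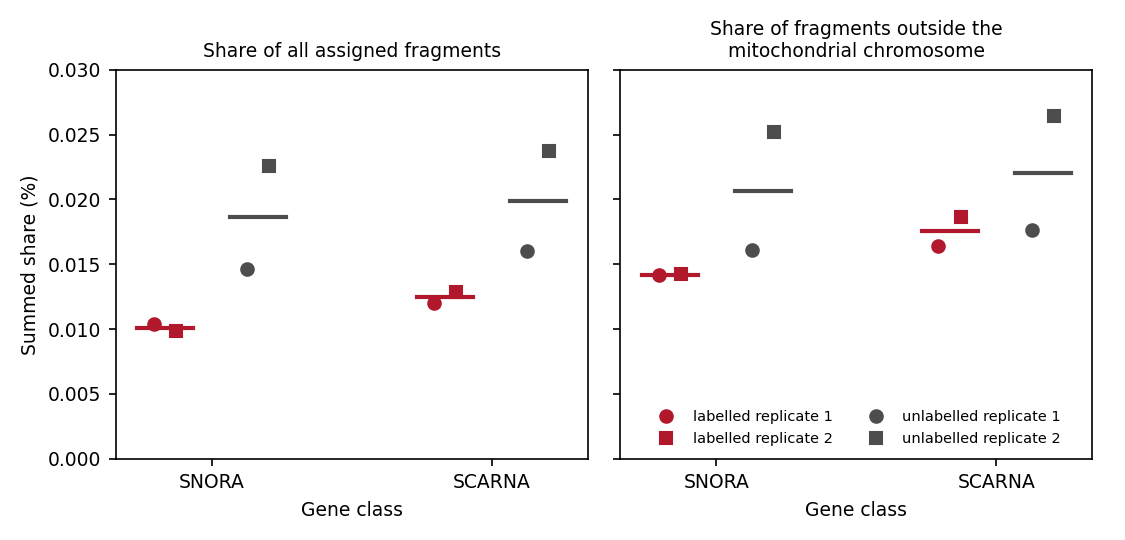
Summed share of SNORA and SCARNA genes per library, as a percentage of all assigned fragments (left panel) and of fragments outside the mitochondrial chromosome (right panel). Points are libraries, circles replicate 1 and squares replicate 2, with labelled (red) left of unlabelled (grey), and horizontal bars are group means of 2 libraries. Both classes lie lower in both labelled libraries on the left, and the SCARNA groups overlap on the right.

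The balance between Cajal body and nucleolar RNAs within a library does not depend on its total. SCARNA to SNORA ratios of summed fragments were 1.16 and 1.31 in the labelled libraries, against 1.09 and 1.05 in the unlabelled libraries. SCARNA genes thus made up 53.7% (95% Wilson interval 51.5 to 55.8%) and 56.7% (54.9 to 58.5%) of member fragments in the labelled libraries, against 52.2% (50.3 to 54.2%) and 51.2% (49.3 to 53.1%) in the unlabelled libraries. The labelled ratios lay above the unlabelled ones, and the interval of labelled replicate 1 overlapped that of both unlabelled libraries. SCARNA7 alone made up 34.9% and 39.6% of member fragments in the labelled libraries, against 33.3% and 32.9% in the unlabelled libraries. SCARNA7 and SNORA73B held the most fragments of their classes. With both left out, the ratios were 0.510 and 0.495 in the labelled libraries, against 0.519 and 0.504 in the unlabelled libraries. The groups then overlapped and the direction of the means turned, so the class balance in these data rested on SCARNA7 and SNORA73B.

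Gene by gene, no member passed the edgeR quasi-likelihood test. Of 19277 genes tested over the whole table, 55 (0.285%) had a Benjamini-Hochberg adjusted p under 0.05, with 52 higher (0.27%) and 3 lower (0.0156%) in labelled libraries, and 0 of the 45 members were among them. At an unadjusted p under 0.05 there were 9 members, 8 lower and 1 higher in labelled libraries, against 5.52% of all genes lower and 5.5% higher. DESeq2 passed 1 member, SCARNA5, as lower, against 0.0986% of all 19277 genes that it passed as lower. It gave no adjusted p for most members, such as SNORA66, so these could not pass. In levels scaled by the trimmed mean of M values (TMM), 22 members (48.9%) had both labelled libraries below both unlabelled ones, against 21.8% of all genes, and 2 members (4.44%) had them above, against 22%. The log2 fold change, labelled over unlabelled, was negative for 36 of the 45 members, against 52.5% of all genes, with a median of -0.54 for the members and -0.02 for all genes.

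These counts describe the members that passed the minimum and are no test of the set. Of the 45, 28 reached 10 fragments in all 4 libraries, and 3 (SNORA74B, SNORA38B and SCARNA18B) passed through the unlabelled libraries alone and so had to be lower in labelled ones. With no minimum, 85 of the 116 members with any fragment had a negative log2 fold change (73.3%, against 51.5% of all genes). Unlabelled replicate 2 was the shallowest library, at 5771795 assigned fragments, against 8172347 in unlabelled replicate 1 and 9380258 and 12287451 in the labelled libraries. The median absolute log2 difference over tested genes was 0.265 between both unlabelled libraries, and 0.186 and 0.201 between unlabelled replicate 1 and each labelled library. Without it, 30 members were negative and the median was -0.30, and without unlabelled replicate 1 these values were 37 and -0.73. Members passing edgeR, all as lower, numbered 3 without unlabelled replicate 2 (2.95% of all genes), 11 without unlabelled replicate 1 (8.75%), 1 without labelled replicate 2 (0.0467%) and 0 without labelled replicate 1 (0.0882%). They numbered 9 with scaling by library size alone, where 14% of all genes passed as lower, and 4 with no minimum, where 0.3% did.

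**Figure D3:**
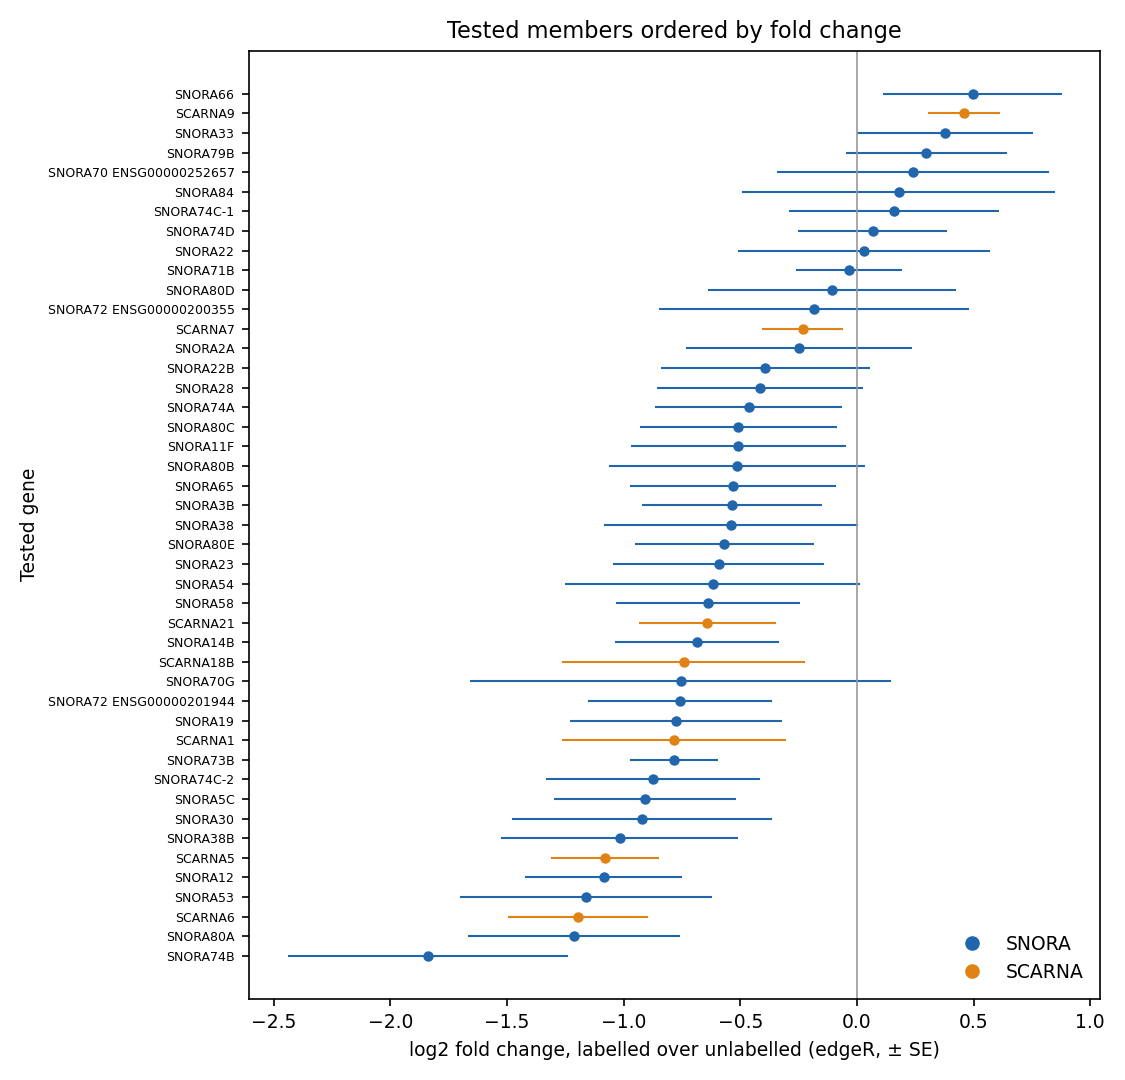
Log2 fold change of the 45 tested members, labelled over unlabelled, with ± SE from edgeR, ordered by value (SNORA blue, SCARNA orange). Of the 45 points, 36 lie left of 0, the median is -0.54, and SNORA66 and SCARNA9 have the highest values at 0.50 and 0.46.

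SCARNA7 is a guide for ribose methylation of a spliceosomal RNA. Among the Cajal body RNAs that could be counted it had by far the highest level, also per length. It had 316 CPM per kilobase over the 4 libraries, ahead of SNORA73B at 158, SCARNA5 at 60.1, SCARNA9 at 50.4 and SNORA71B at 43.9. These values use the full length, although 42.2% of the bases of SCARNA9 lie in exons of other genes. The TMM-scaled levels of SCARNA7 were 85.4 and 106 CPM in the labelled libraries, against 93.2 and 133 CPM in the unlabelled libraries. The groups overlapped, and its log2 fold change was -0.23 ± 0.17 (SE; edgeR adjusted p 0.646). That value was 0.04 without unlabelled replicate 2.

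The pair of mixed RNAs from the ATG16L1 gene stood lower in labelled libraries. SCARNA5 had 10.0 and 11.0 CPM in the labelled libraries, against 16.7 and 28.5 CPM in the unlabelled libraries. Both labelled values lay below both unlabelled ones, with a log2 fold change of -1.08 ± 0.23 and an edgeR adjusted p of 0.109, the lowest of any member. The DESeq2 adjusted p of SCARNA5 was 0.0482. For SCARNA6 the levels were 3.26 and 5.38 CPM in the labelled libraries, against 8.14 and 12.2 CPM in the unlabelled libraries. These did not overlap either, and the log2 fold change was -1.20 ± 0.30 (edgeR adjusted p 0.190; DESeq2 0.212). Without unlabelled replicate 2, whose values were the highest for both, the log2 fold changes were -0.66 for SCARNA5 and -0.89 for SCARNA6.

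SCARNA9, the double C/D guide, went the other way. It had 20.6 and 20.6 CPM in the labelled libraries, against 14.7 and 15.3 CPM in the unlabelled libraries. The replicates of each group were close and the groups did not overlap, with a log2 fold change of 0.46 ± 0.15 and an edgeR adjusted p of 0.325. Leaving out single libraries kept it between 0.43 and 0.48, the narrowest such range among the named members, while scaling by library size alone gave 0.11 (edgeR adjusted p 0.661). SCARNA9 was thus the member with the smallest p of those above 0 and did not pass over all genes.

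The tested H/ACA members of the SCARNA class had lower CPM. Per kilobase, SCARNA21, at 32.0 CPM, stood above SCARNA6, at 27.4 CPM. SCARNA21 (ACA68) had 3.26 and 3.65 CPM in the labelled libraries, against 5.13 and 5.74 CPM in the unlabelled libraries. Its groups did not overlap, and the log2 fold change was -0.64 ± 0.29 (edgeR adjusted p 0.450). SCARNA1 (ACA35), whose groups overlapped, stood at -0.78 ± 0.48, and SCARNA18B stood at -0.74 ± 0.52, with edgeR adjusted p-values of 0.573 and 0.623. The value of SCARNA1 was -0.12 without unlabelled replicate 2 and -1.31 without unlabelled replicate 1, so single libraries set its size.

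**Figure D4:**
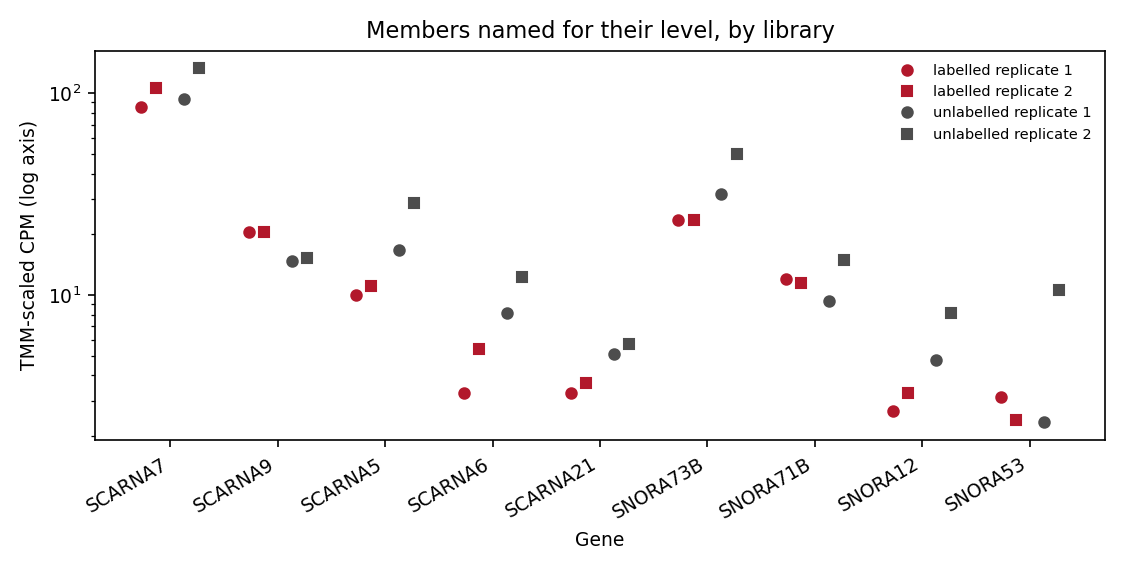
TMM-scaled CPM (log axis) of 9 members in each library, with labelled libraries (red) left of unlabelled libraries (grey), circles for replicate 1 and squares for replicate 2. SCARNA5, SCARNA6, SCARNA21, SNORA73B and SNORA12 have both labelled points below both unlabelled ones, SCARNA9 has them above, and SCARNA7, SNORA71B and SNORA53 overlap.

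Among the nucleolar RNAs that could be counted, SNORA73B led. It is a U17 RNA, which takes part in cleavage of the ribosomal RNA precursor, unlike most H/ACA RNAs, and whose yeast counterpart is essential for making the small ribosomal subunit. SNORA73B had 23.5 and 23.5 CPM in the labelled libraries, against 31.7 and 50.1 CPM in the unlabelled libraries. The labelled replicates were equal to 3 digits and lay below both unlabelled ones, at -0.78 ± 0.19 on the log2 scale (edgeR adjusted p 0.160; DESeq2 0.148). Leaving out unlabelled replicate 2 gave -0.43, and leaving out unlabelled replicate 1 gave -1.09.

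SNORA71B, in an intron of SNHG17, had the second highest level of the tested SNORA members. It stood at 12 and 11.4 CPM in the labelled libraries, against 9.36 and 15.0 CPM in the unlabelled libraries. Its labelled values lay between the unlabelled ones, and its log2 fold change was -0.03 ± 0.23 (edgeR adjusted p 0.974). SNORA12 had 2.68 and 3.27 CPM in the labelled libraries, against 4.79 and 8.15 CPM in the unlabelled libraries. These did not overlap, and the log2 fold change was -1.09 ± 0.34 (edgeR adjusted p 0.317). SNORA53 had 3.14 and 2.40 CPM in the labelled libraries, against 2.34 and 10.6 CPM in the unlabelled libraries. Only unlabelled replicate 2 was high for SNORA53, and its log2 fold change of -1.16 ± 0.54 (edgeR adjusted p 0.463) became 0.23 without that library.

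Some SNORA members stood at or above 0. SNORA66, in an intron of the ribosomal protein gene RPL5, had 2.91 and 3.84 CPM in the labelled libraries, against 1.90 and 3.02 CPM in the unlabelled libraries. The groups overlapped by a small margin, and the log2 fold change was 0.50 ± 0.38 (edgeR adjusted p 0.658). SNORA79B, from CCNB1IP1, had 3.61 and 3.17 CPM in the labelled libraries, against 2.90 and 2.57 CPM in the unlabelled libraries. This was the one SNORA member with both labelled values above both unlabelled ones, with 0.30 ± 0.34 on the log2 scale (edgeR adjusted p 0.780), which was -0.05 with scaling by library size alone. SNORA74D, at 0.07 ± 0.32 and at -0.28 with library size alone, overlapped between the groups.

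The smallest p-values among the remaining SNORA members belonged to thinly counted genes. SNORA74B, a member of the U19 family, had 5 and 3 fragments in the labelled libraries, against 12 and 12 fragments in the unlabelled libraries. Its log2 fold change of -1.84 ± 0.60 was the lowest of all members (edgeR adjusted p 0.320), and it entered the test only through the unlabelled libraries. SNORA80A, from an intron of URB1, had 7 and 13 fragments in the labelled libraries, against 21 and 17 fragments in the unlabelled libraries. It stood at -1.21 ± 0.46 with an edgeR adjusted p of 0.373, and its 4 relatives SNORA80B to SNORA80E were also negative, the highest at -0.11. SNORA5C stood at -0.91 ± 0.39 (edgeR adjusted p 0.427) and SNORA14B at -0.69 ± 0.35 (0.502), and for both the groups did not overlap.

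Depth set how far single members could be read. The 6 members with a mean of 5 CPM or more had a median log2 fold change of -0.51 with a median SE of 0.21. The 18 members between 2 and 5 CPM had a median of -0.58, and the 21 under 2 CPM a median of -0.53 with a median SE of 0.53. The medians were alike while the SE rose with falling counts. Just inside the minimum were SNORA70G, with 0 and 10 fragments in the labelled libraries, against 11 and 3 fragments in the unlabelled libraries, and SNORA84, with 8 and 12 labelled against 3 and 11 unlabelled fragments. Just outside it were SNORA2B, with 8 and 9 labelled against 6 and 19 unlabelled fragments, and SCARNA3, with 12 and 9 labelled against 7 and 9 unlabelled fragments. The tested members were 123 to 353 bases long, and the 10 of at least 200 bases held 72.9% of the tested members' fragments. Levels here are those of material that the series text calls labelled and enriched, so they need not follow the amount of RNA in the cells. Fewer cells or less RNA per cell cannot be told apart in such bulk libraries, and what lies behind a lower level was not tested.

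The host genes gave a within-locus comparison, because fragments over host exons and fragments over a member's span are counted separately. Fragments of unspliced host RNA, or of the opposite strand, over a member's span also count as that member. How much of a member's count came from them was not tested. Of the 45 tested members, 40 lay within a host gene on the same strand, and for 39 the host was tested too. The hosts had a median log2 fold change of 0.02, with 0 of them called, and ranged from -0.50 to 0.44. The member's log2 fold change was below that of its host in 32 pairs and above it in 7. The 32 include SNORA74B, SNORA38B and SCARNA18B, which passed the minimum through the unlabelled libraries alone. As the hosts stood near 0, this count mostly repeats the signs of the members, which were negative for 36 of the 45. SNHG3, host of SNORA73B, had 280 and 294 CPM in the labelled libraries, against 214 and 214 CPM in the unlabelled libraries. It was thus higher in both labelled libraries (0.43 ± 0.14, edgeR adjusted p 0.319), where SNORA73B was lower.

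ATG16L1, which encodes an autophagy protein and hosts SCARNA5 and SCARNA6, had 41.6 and 39.0 CPM in the labelled libraries, against 41.5 and 36.8 CPM in the unlabelled libraries. Its groups overlapped and its log2 fold change was 0.04 ± 0.13, beside -1.08 and -1.20 for the RNAs in its introns. CEP295, host of SCARNA9, stood at -0.20 ± 0.13, on the other side of 0 from its intronic RNA. KPNA4, host of SCARNA7, was at 0.02, CWF19L1, host of SNORA12, at -0.03, and CHD3, host of SCARNA21, at 0.04. The difference between a member and its host was not tested as such.

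**Figure D5:**
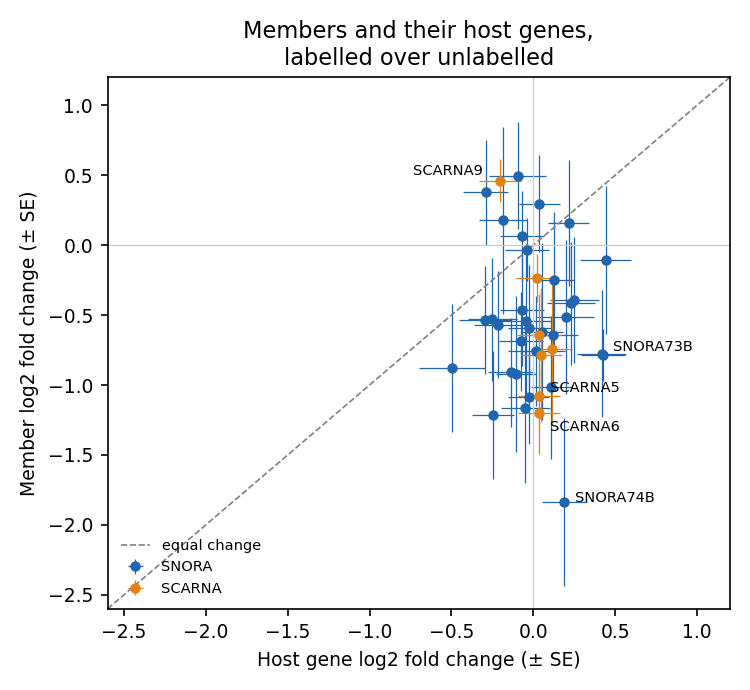
Log2 fold change (labelled over unlabelled, ± SE) of 39 tested members on the vertical axis against that of their host genes on the horizontal axis, with the dashed line marking equal change. Hosts lie between -0.50 and 0.44, and 32 of the 39 members fall below the line. The 32 include SNORA74B, SNORA38B and SCARNA18B, which passed the minimum through the unlabelled libraries alone.

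The proteins that bind these RNAs were measured as mRNAs. Of the 4 H/ACA core proteins, 1 passed and rose. GAR1 had 46.8 and 54.0 CPM in the labelled libraries, against 30.8 and 28.2 CPM in the unlabelled libraries, or 0.77 ± 0.13 on the log2 scale (edgeR adjusted p 0.0329). The groups were well apart, and the call was lost without labelled replicate 2, where the log2 fold change was 0.66, and with the mitochondrial chromosome left out, where it was 0.78 with an adjusted p of 0.0568. With library size alone it was 0.42 with an edgeR adjusted p of 0.0567. DKC1 stood at 0.06, NHP2 at 0.03 and NOP10 at -0.24, and these 3 did not pass, with edgeR adjusted p-values of 0.895, 0.967 and 0.546.

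Proteins that assemble or process H/ACA RNAs, such as NAF1, SHQ1 and PARN, were all tested and 0 of 11 passed, with a median of 0.10. Among 16 Cajal body and SMN complex genes 0 passed and 2 had an unadjusted p under 0.05, against 11% of all genes in either direction, with a median of 0.10. WRAP53, which carries RNAs with a Cajal body signal to that body, was at 0.13 ± 0.14, and COIL, the marker protein of the Cajal body, at 0.21 ± 0.13. Of the 4 C/D core proteins 0 passed and 1 had an unadjusted p under 0.05, FBL (fibrillarin), at 0.48 ± 0.16 (edgeR adjusted p 0.320).

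Related nuclear RNAs did not all stand on the same side. The 33 tested SNORD genes had a median log2 fold change of -0.01, with 15 above and 18 below 0, 0 called and 5 at an unadjusted p under 0.05, against 11% of all genes. Spliceosomal RNA genes, whose products the Cajal body RNAs modify, stood above 0 in 6 of 6 tested of the 8 listed, with a median of 1.26, 0 called and 5 at an unadjusted p under 0.05, all higher, against 5.5% of all genes. RNU4-2 had 10.0 and 11.9 CPM in the labelled libraries, against 5.46 and 4.98 CPM in the unlabelled libraries (1.07 ± 0.23, edgeR adjusted p 0.110). These genes have many near-identical copies, so their counts are uncertain. RMRP stood at -1.10 ± 0.22 (edgeR adjusted p 0.0795), and the other 2 single-gene RNAs in its list were listed at 0.

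Telomerase RNA, TERC, is an H/ACA RNA by structure that carries a Cajal body signal but has no SNORA or SCARNA symbol. It had 2 and 2 fragments in the labelled libraries, against 4 and 2 fragments in the unlabelled libraries, and was not tested. At a limit of 3 fragments per library no difference in TERC was detectable. TERT, the protein partner of TERC, stood at -0.26 ± 0.20 (edgeR adjusted p 0.657) with overlapping groups.

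As a check of the labelled line, the 5 HEK293T markers chosen (PAX2, LHX1, NEFL, NEFM and VIM) were all counted. They summed to 173 to 190 CPM of assigned fragments in labelled and 223 to 262 CPM in unlabelled libraries. Most of this was VIM, at 171 and 154 CPM in the labelled libraries, against 237 and 206 CPM in the unlabelled libraries. Of 6 blood markers, 4 had fragments, and HBB and CD3E were at 0 in every library. PTPRC had 0 and 0 fragments in the labelled libraries, against 1 and 1 fragments in the unlabelled libraries, and CD14 had 12 and 13 fragments in the labelled libraries, against 11 and 6 fragments in the unlabelled libraries. Of 6 fibroblast and endothelium markers, COL1A2 was at 0, and the list summed to 17.2 to 19.1 CPM in labelled and 14.6 to 21.4 CPM in unlabelled libraries, mostly COL1A1. Their part in the results was not tested.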

How the data were processed

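Fragment counts per gene were deposited for 4 libraries (2 labelled, 2 unlabelled, grouped by title). Per the file headers, featureCounts 1.6.4 gave the authors these raw counts over GENCODE 44 exons, from read pairs with both ends mapped, without strand and without options for multi-mapping or overlapping features. Per the submitters' processing notes, STAR 2.7.9a, GRCh38 and DESeq2 1.42.0 were used. Whether duplicates were removed is not stated in the labels or headers. Overlaps with exons and host genes came from the table's coordinates, and all 62700 IDs had a symbol.

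Genes with 10 or more counts in at least 2 of 4 libraries were tested with the edgeR 4.0.16 quasi-likelihood test (R 4.3.3, TMM, Benjamini-Hochberg over all 19277 genes, threshold 0.05), and each SE is |log2 fold change|/√F. The test was tried on simulated data. CPM is per 1000000 TMM-scaled fragments unless said otherwise. Wilson intervals (95%) and the limit of 3 counts cover counting error only. Alternatives were DESeq2, other scalings and filters, thinning, a replicate block and leaving out each library. The named genes were the 8 SNORA and 5 SCARNA members with the highest mean CPM, any member called, the 5 SNORA and 3 SCARNA members with the smallest p, the extremes of each class at 5 CPM or more, TERC, the core proteins and WRAP53, and the host genes; others were chosen after their values were seen. The sum of the blood markers is not reported here. Members and lists were chosen with earlier results of these data known. Python 3.11.15, pandas 2.3.3, SciPy 1.17.1 and matplotlib 3.10.9 were also used.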

Additional observations from a re-analysis of the deposited data

How the results depend on the processing

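The negative median of the members and the lower summed shares kept their direction in every alternative run, and their size and the calls did not. Members passing numbered 1 with DESeq2, 9 with library size alone, 4 with no filter, 3 with the replicate block and 0 to 11 when leaving out 1 library, and all of these were lower. Split by class these were 0, 5, 2, 1 and 0 to 7 for SNORA and 1, 4, 2, 2 and 0 to 4 for SCARNA. All genes called numbered 2774 with library size alone, 27 with the mitochondrial chromosome left out, 302 with no filter, 232 with the replicate block and 50 to 3803 when leaving out 1 library. Library size alone moved the median of all genes to -0.37 and that of the members to -0.90, and leaving out 1 library gave -0.73 to -0.30. The titles do not say whether same-numbered libraries were prepared together. Deviations of same-numbered libraries correlated at -0.0542 over 19277 genes, and with 2 libraries per group this value cannot decide it. With the replicate block SNORA73B, SCARNA5 and SCARNA6 passed, where 0.477% of all genes passed as lower.

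The share ratio was 0.743 outside the mitochondrial chromosome and 0.750 with TMM-scaled library sizes for all members, 0.688 and 0.694 for SNORA and 0.795 and 0.803 for SCARNA. Over all assigned fragments, a different base, leaving out 1 library gave 0.487 to 0.734, 0.447 to 0.688 and 0.525 to 0.775 in the same order. The labelled over unlabelled quotient of the SCARNA to SNORA ratio was 1.15 and became 0.983 without SCARNA7 and SNORA73B. With all members it lay at 1.081 to 1.22 when leaving out 1 library.

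Signs of values near 0 turned. With library size alone SNORA74D was -0.28, SNORA79B -0.050, DKC1 -0.29, NHP2 -0.32, WRAP53 -0.22, CCNB1IP1 -0.31, ATP6V0E1 -0.17, KPNA4 -0.33, ATG16L1 -0.31 and CHD3 -0.31. With no filter SNORA71B was 0.0026 and CWF19L1 0.0044, and with thinning KPNA4 was -0.0043 and ATG16L1 -0.090. Leaving out 1 library gave SNORA71B -0.35 to 0.32, SNORA53 -1.94 to 0.23, SNORA74D -0.081 to 0.26, SCARNA7 -0.47 to 0.043, DKC1 -0.050 to 0.17, NHP2 -0.18 to 0.28, SNHG17 -0.095 to 0.022, CWF19L1 -0.069 to 0.019, SLC25A3 -0.19 to 0.12, SNHG4 -0.20 to 0.068, CCNB1IP1 -0.0095 to 0.088, RPL5 -0.22 to 0.045, TBRG4 -0.30 to 0.046, KPNA4 -0.023 to 0.074, ATG16L1 -0.045 to 0.13 and CHD3 -0.084 to 0.17. The cause of these changes was not tested. Below 2 CPM the median SE of 0.53 was as large as the median change.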
